A study of Arabidopsis thaliana with 10 samples.

Results

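A set of 37 Arabidopsis thaliana genes was measured well above background in wild-type seedlings and lay at background in seedlings that express antisense EMF1, in those that express it in an ult1-3 mutant, or in both. They were chosen by measured values. Each gene was represented by its brightest probe, and its level is the log2 of the probe's signal over the 75th percentile of the array. Of the 37 genes, 31 had 1 probe, so their levels rest on it alone, and 6 had more. A gene was selected if its level was above -5.5 on all 4 wild-type (WT) arrays and below -7.5 on both LFYasEMF1 arrays or on both LFYasEMF1/ult1-3 arrays, and AT1G53480 and AT3G01345 were left out by the selection rule. Of 25433 loci with a probe, 18237 passed the WT limit, and the 37 genes are among these. Since these arrays chose the genes, their values on them are a description and carry no test. The ult1-3 arrays were not used in the choice.

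Whole seedlings of 4 genotypes came from agar plates kept in short days, at an age of 7 or 15 days. LFYasEMF1 carries an antisense EMF1 transgene driven by the LFY promoter, LFYasEMF1/ult1-3 carries that transgene and the ult1-3 allele and is called the double line here, ult1-3 carries the mutant allele alone, and WT carries neither. LFYasEMF1, the double line and ult1-3 had 1 array per age, and WT had 2 per age, which makes 10 arrays in 8 groups. The sources used here do not give the number of transgenic plants behind the lines or of seedlings in a sample, and nothing says that the 2 WT arrays of an age came from separate cultures. By the series title, the question was whether ult1-3 restores what LFYasEMF1 alters.

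EMF1 acts with the Polycomb proteins, which keep genes of the flowering programme silent in seedlings through chromatin. ULT1 has a SAND domain, is counted with the trithorax proteins, which oppose Polycomb, and is known to activate AG in flowers. The LFY promoter is active in young primordia of the shoot, rather than in all cells of a seedling. Several of the genes described here belong to families of the plant immune system, whose members often stand beside similar copies on the chromosome: receptors with nucleotide-binding and leucine-rich repeat domains (NLRs) inside the cell, receptor-like proteins at its surface, and lectin-like phloem proteins of the PP2 family.

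Over the arrays, the 75th percentile of signal lay between 3723 and 5996, and 71.7% to 80.1% of the spots were well above background by the scanner software's flag. The arrays lay on 3 slides. Slide 1 held both LFYasEMF1 arrays and WT replicate 1 of both ages, while slides 2 and 3 held the double line, ult1-3 and WT replicate 2 at 7 and at 15 days. Leaf mesophyll markers averaged between 6.08 and 6.55 in the double line, between 6.18 and 6.25 in LFYasEMF1 and between 5.87 and 6.23 in WT, as log2 levels over 6 genes. The 3 seed markers averaged -3.81 on the 7-day array of the double line and between -9.995 and -7.47 on the arrays outside that line, and stood at -9.25 on its 15-day array. At an unadjusted p under 0.05 these 3 were higher in the double line, as were 3 of 5 shoot meristem markers, with none called after limma adjustment. The 5 meristem markers averaged between -4.93 and -4.59 in the double line, between -5.75 and -5.14 in LFYasEMF1 and between -5.84 and -4.72 in WT. In ult1-3 they averaged between -5.145 and -4.52. In LFYasEMF1, 1 of them was higher and 1 lower at that p, and in ult1-3 1 was higher and 0 lower. The 1 in ult1-3 was CLV3, which was 1.62 above WT there and 1.50 above WT in the double line. None of the 7 root and 5 phloem markers was called by limma in any line, with 1 of each lower in LFYasEMF1 and 1 root marker lower in the double line at an unadjusted p under 0.05. The part of these markers in the levels below was not tested. The 3 stamen and pollen markers on the array were well above background on none of the 10 arrays. In whole seedlings, fewer cells of a type and less RNA per cell cannot be told apart.

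Of the 18237 loci, 34 lay below -7.5 on both LFYasEMF1 arrays (0.186%) and 19 on both arrays of the double line (0.104%). The 2 sets share 16 genes, 18 met the limit in LFYasEMF1 only and 3 in the double line only. These counts rest on single arrays: without the 7-day LFYasEMF1 array 29 met the limit in LFYasEMF1 only, and in the double line only 25 did without its 15-day array and 7 without its 7-day array. By the software's flag in place of the limits, 47 were at background in LFYasEMF1 only and 100 in the double line only. By the same limit 1 locus lay at background on both ult1-3 arrays (0.00548%). All 37 were well above background on the 4 WT arrays, 34 on neither LFYasEMF1 array and 22 on neither double-line array. The 34 genes had levels between -9.85 and -7.51 in LFYasEMF1, and the 19 genes lay between -9.46 and -7.82 in the double line. WT means over 4 arrays ran from -4.94 to 1.11, with a standard deviation (SD) of 0.15 to 1.32. The lowest signal still well above background was -7.02 and -7.55 on the LFYasEMF1 arrays and -6.80 and -7.16 on the double-line arrays, so a gene below -7.5 has only an upper bound there on 3 of these 4 arrays, and folds below are given as "at least".

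**Figure D1:**
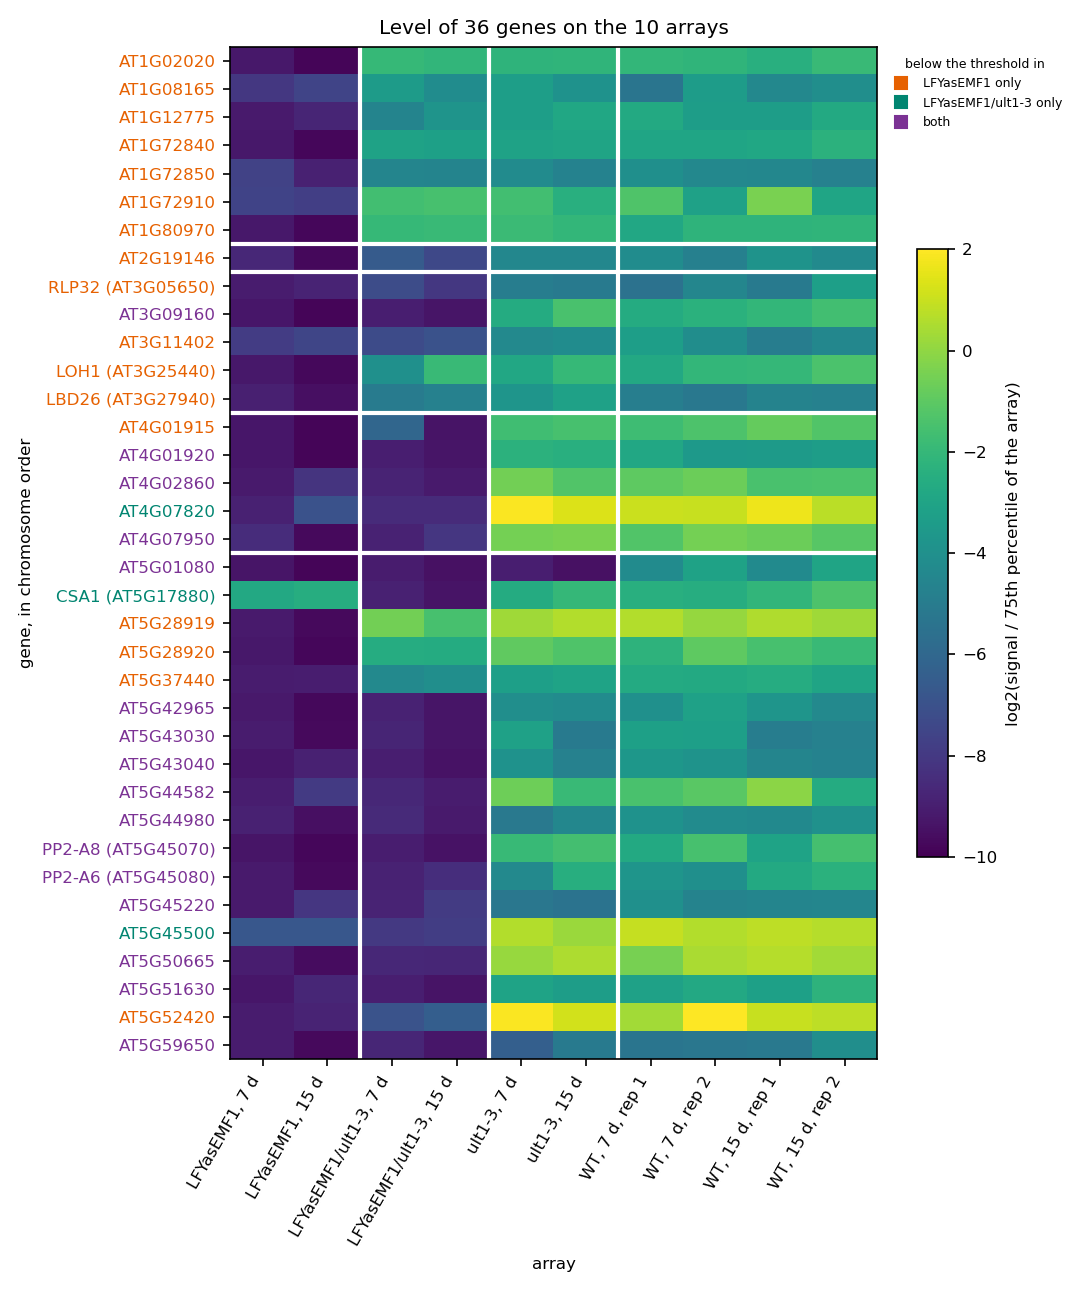
Levels of 36 of the 37 genes (rows, in chromosome order, white lines between chromosomes) on the 10 arrays (columns, by genotype), as log2 of signal over the 75th percentile of the array; the colour of a gene's name gives the line in which it lay below -7.5. The genes at background in LFYasEMF1 are dark on both of its arrays, CSA1 is bright there, and ult1-3 resembles WT in all rows but that of AT5G01080.

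The limit at -7.5 splits genes that were lowered in both lines. Counted by a mean more than 2 log2 units below WT, 23 genes were lower in both lines, 13 in LFYasEMF1 alone and 1 in the double line alone. Of the 18 genes counted for LFYasEMF1 only, 5 were also far below WT in the double line without meeting the limit there: AT2G19146, RLP32 (AT3G05650), AT3G11402, AT4G01915 and AT5G52420, with double-line means that differed from WT by -7.71 to -2.72. The other 13 had double-line means that differed from WT by -1.45 to 0.49. In the opposite direction, AT4G07820 and AT5G45500 were counted for the double line only, yet their LFYasEMF1 means differed from WT by -9.04 and -7.5. The split by size therefore leaves 1 gene, CSA1, that was low in the double line and near its WT level in LFYasEMF1.

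**Figure D2:**
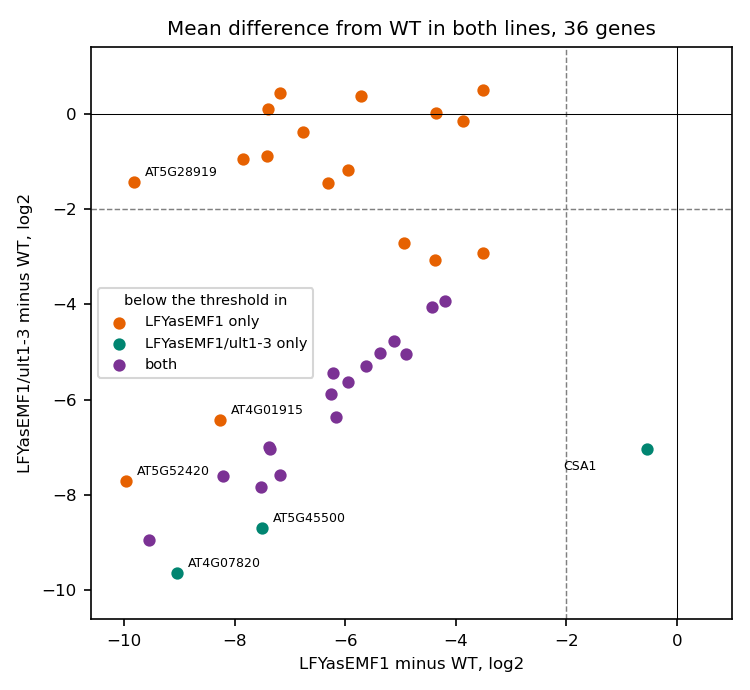
Mean level in LFYasEMF1 minus WT (horizontal) against mean level in LFYasEMF1/ult1-3 minus WT (vertical), both in log2 units, for 36 of the 37 genes, coloured by the line in which they lay below -7.5; dashed lines mark 2 units below WT. A group of 12 genes lies far left at a vertical value between -1.45 and 0.49, 23 genes lie at the lower left, and CSA1 stands alone at the right.

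Most of the 37 genes have no symbol other than their locus in the reference table. Of the 6 described here that have one, 4 belong to the immune or phloem families above, and each is given by its values at 7 and 15 days for the lines and as 7-day then 15-day replicates for WT. CSA1 (AT5G17880) is an NLR gene named for a shade-avoidance mutant. Its levels were -2.76 and -2.53 in LFYasEMF1, -8.89 and -9.37 in the double line, -2.64 and -2.0 in ult1-3, and -2.43, -2.51, -2.09 and -1.36 in WT. The double line was at least 29.5-fold below WT, while LFYasEMF1 differed from it by -0.55 log2 units and lay just under the WT range. The neighbouring gene DAR4 (AT5G17890), the NLR partner with which CSA1 is known to work, is not one of the 37 genes but followed it. DAR4 stood at -2.26 and -2.22 in LFYasEMF1, at -8.38 and -6.38 in the double line, at -1.99 and -0.88 in ult1-3, and at -2.15, -1.12, -1.69 and -0.29 in WT. The next gene, AT5G17900, stood at -6.67 and -3.0 in the double line, both below its WT arrays, which ran from -2.92 to -1.57. In ult1-3 it had -4.28 and -2.23, and it was not called in the double line (limma adjusted p = 0.149). The 7-day value of the double line was by far the lower of the pair.

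RLP32 (AT3G05650), a receptor-like protein that detects a bacterial translation initiation factor, had -9.09 and -8.82 in LFYasEMF1, -7.23 and -8.05 in the double line, -4.90 and -5.04 in ult1-3, and -5.49, -4.49, -5.12 and -3.23 in WT. All 4 arrays with the transgene were below the 6 without it. Its neighbour RLP33 (AT3G05660), of the same family, did not pass the WT limit and had WT values between -6.30 and -5.05. It had -7.06 and -8.30 in LFYasEMF1, -6.22 and -9.29 in the double line, and -7.54 and -9.28 in ult1-3. By limma it was called in none of these lines (adjusted p 0.261, 0.221 and 0.652).

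PP2-A8 (AT5G45070) and PP2-A6 (AT5G45080) are adjacent genes of the phloem lectin family, and both lay at background in both lines. PP2-A8 had -9.31 and -9.81 in LFYasEMF1, -9.04 and -9.43 in the double line, -1.93 and -1.58 in ult1-3, and -2.73, -1.49, -3.06 and -1.52 in WT. PP2-A6 had -9.14 and -9.72 in LFYasEMF1, -8.85 and -8.44 in the double line, -4.35 and -2.49 in ult1-3, and -3.74, -4.04, -2.73 and -2.35 in WT. For both genes the 4 transgenic arrays were more than 4 units below the lowest array without the transgene. The next gene along, PP2-A7 (AT5G45090), was dimmer in WT, at -6.80 to -5.90, so it could not enter the selection, and it had -9.19 and -9.75 in LFYasEMF1 and -8.89 and -9.19 in the double line. AT5G45095, which follows it, missed the WT limit with a lowest WT array of -5.58 and differed from WT by -4.75 in LFYasEMF1 and by -4.37 in the double line.

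The other symbols described are LBD26 (AT3G27940), of the LOB-domain family of plant transcription factors, and LOH1 (AT3G25440). LBD26 had -8.94 and -9.5 in LFYasEMF1, -4.99 and -4.71 in the double line, -3.73 and -3.12 in ult1-3, and -4.88, -5.21, -4.64 and -4.74 in WT. Its double-line values fell inside the WT range and both ult1-3 values were above it. LOH1 had -9.21 and -9.73 in LFYasEMF1, -3.99 and -1.87 in the double line, -2.81 and -1.95 in ult1-3, and -2.75, -2.04, -2.01 and -1.38 in WT. A second probe of LOH1 did not follow the first: it differed from WT by 0.47 in LFYasEMF1 and by -2.04 in the double line, so the loss in LFYasEMF1 rests on 1 of 2 probes.

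The genes were unevenly spread over the chromosomes. Chromosome 5 held 18 of the 37 (48.6%), against 23.5% of all loci that passed the WT limit, and chromosome 2 held 1 (2.70%), against 15.4% of loci. In parts of the genome, which line was lower went with a gene's place. All 8 genes on chromosome 1 were at background in LFYasEMF1 only, and none was more than 2 units lower in the double line. All 5 genes on chromosome 4 were more than 2 units lower in both lines, and so were all 13 genes on chromosome 5 from AT5G42965 to its end. The earlier part of chromosome 5 was mixed. There AT5G01080 was lower in both lines, CSA1 in the double line alone, and AT5G28919, AT5G28920 and AT5G37440 in LFYasEMF1 alone. The chromosome 2 gene, AT2G19146, was lower in both lines. On chromosome 3, RLP32, AT3G09160 and AT3G11402 were lower in both lines, and LOH1 and LBD26, which lie beyond them in gene order, in LFYasEMF1 alone.

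**Figure D3:**
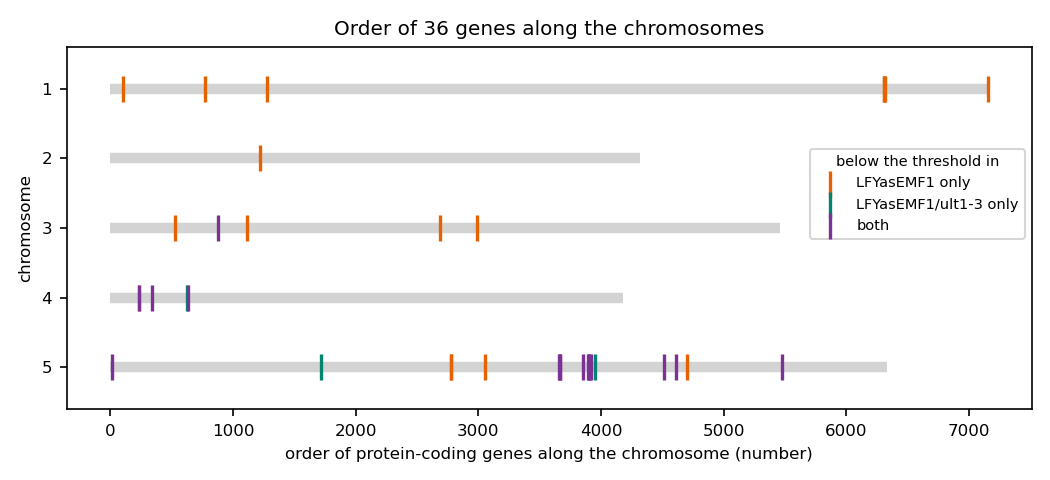
Place of 36 of the 37 genes (ticks) in the order of protein-coding genes along the 5 chromosomes (grey bars, number of genes from the start), coloured by the line in which they lay below -7.5. Ticks for LFYasEMF1 only fill chromosome 1, and ticks for both lines gather on chromosome 4 and in the later part of chromosome 5.

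On chromosome 5, 9 of the genes fall among the 299 protein-coding genes from AT5G42965 to AT5G45540. AT5G42965 lay between -9.72 and -9.17 in LFYasEMF1, between -9.33 and -8.87 in the double line and between -4.37 and -3.13 in WT. AT5G43030 and AT5G43040, adjacent genes, come 7 and 8 places later. AT5G43030 had -9.09 and -9.68 in LFYasEMF1, -8.75 and -9.32 in the double line, -3.14 and -5.06 in ult1-3, and -3.20, -3.24, -4.90 and -4.72 in WT. AT5G43040 had -9.26 and -8.90 in LFYasEMF1, -9.0 and -9.42 in the double line, -3.88 and -4.72 in ult1-3, and -3.65, -3.84, -4.55 and -4.66 in WT. For both genes the selection itself fixed that the lines and WT do not overlap. The 5 other genes above the WT limit from AT5G42965 to AT5G43040 were all within 1 unit of WT in both lines.

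AT5G44582 had -9.02 and -7.97 in LFYasEMF1, -8.67 and -9.09 in the double line, -0.64 and -1.87 in ult1-3, and -1.43, -1.08, -0.11 and -2.61 in WT. It was at least 63.2-fold below WT in LFYasEMF1 and at least 51.1-fold below in the double line. AT5G44574, 4 genes before it, differed from WT by -2.70 in LFYasEMF1 and by -2.74 in the double line. For AT5G44980 the differences were -5.11 in LFYasEMF1 and -4.77 in the double line, and for AT5G45220 they were -4.20 and -3.93.

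AT5G45500 ends this series of genes and was bright in WT. Its levels were -6.73 and -6.73 in LFYasEMF1, -8.03 and -7.82 in the double line, 0.64 and 0.22 in ult1-3, and 0.96, 0.63, 0.81 and 0.67 in WT. Its probe was still well above background on both LFYasEMF1 arrays, 181-fold below WT, and on neither double-line array. A second, dimmer probe of the gene lay at -9.26 and -9.79 in LFYasEMF1 and at -9.01 and -9.40 in the double line, against -3.90 to -2.16 in WT. The gene before it, AT5G45490, differed from WT by -3.95 in LFYasEMF1 and by -4.07 in the double line. Most genes in between were near WT. Of the 37 other genes above the WT limit from AT5G44980 to AT5G45500, 31 were within 1 unit of WT in LFYasEMF1 and 27 in the double line. The shares over all loci above the WT limit were larger, at 92.3% in LFYasEMF1 and 90.2% in the double line. Also among the 37 other genes are RPS4 (AT5G45250) and RRS1 (AT5G45260), paired NLRs against bacterial wilt and bacterial speck. They differed from WT by -0.55 and -0.84 in LFYasEMF1 and by -1.47 and -0.89 in the double line, so RPS4 was not within 1 unit there.

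**Figure D4:**
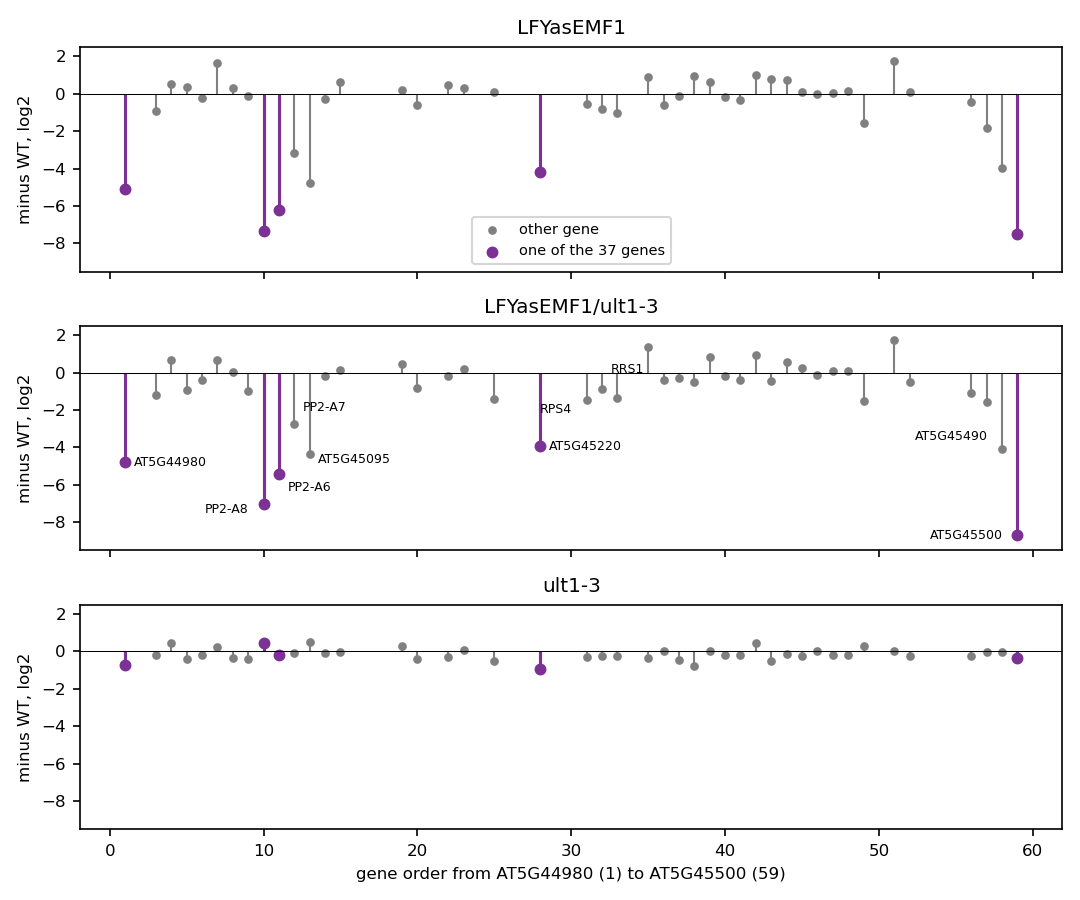
Mean level minus WT (log2) of genes in order from AT5G44980 to AT5G45500, in LFYasEMF1 (top), LFYasEMF1/ult1-3 (middle) and ult1-3 (bottom); purple marks the 5 of the 37 genes there and grey the other genes above the WT limit, with PP2-A7 and AT5G45095 added. The same genes dip in the upper panels, most grey genes between them stay near 0, and the lowest purple value for ult1-3 is -0.92.

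The last 4 genes on chromosome 5 lie apart from each other. AT5G50665 had -9.02 and -9.58 in LFYasEMF1, -8.69 and -8.70 in the double line, 0.14 and 0.51 in ult1-3, and -0.46, 0.50, 0.65 and 0.33 in WT. That is at least 186-fold below WT in LFYasEMF1 and at least 150.3-fold below in the double line. AT5G52420 had -9.08 and -8.82 in LFYasEMF1, -6.94 and -6.43 in the double line, 1.93 and 1.18 in ult1-3, and 0.32, 1.95, 1.01 and 0.80 in WT. It was at least 317-fold below WT in LFYasEMF1. In the double line 1 of 2 arrays was well above background, and no fold is given. AT5G51630, for which 2 probes gave the same picture, differed from WT by -6.16 in LFYasEMF1 and by -6.36 in the double line. For AT5G59650 the differences were -4.43 in LFYasEMF1 and -4.05 in the double line. The gene after it, AT5G59660, did not pass the WT limit and differed from WT by -3.86 in LFYasEMF1 and by -3.71 in the double line.

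On chromosome 4, 2 of the 5 genes were adjacent. AT4G01915 had -9.27 and -9.83 in LFYasEMF1, -6.05 and -9.38 in the double line, -1.66 and -1.48 in ult1-3, and -1.71, -1.36, -0.82 and -1.27 in WT. Its neighbour AT4G01920 had -9.25 and -9.82 in LFYasEMF1, -9.0 and -9.32 in the double line, -2.30 and -2.42 in ult1-3, and -2.82, -3.51, -3.48 and -3.30 in WT. For both genes every transgenic array was below every other array. The gene before them, AT4G01910, differed from WT by -3.78 in LFYasEMF1 and by -2.98 in the double line. The next genes after them did not pass the WT limit, AT4G01925 with differences of -2.51 in LFYasEMF1 and -1.84 in the double line and AT4G01930 with -3.61 and -3.29.

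AT4G02860 had -9.12 and -8.20 in LFYasEMF1, -8.79 and -9.13 in the double line, -0.58 and -1.24 in ult1-3, and -0.96, -0.70, -1.46 and -1.39 in WT. The gene before it, AT4G02850, differed from WT by -4.14 in LFYasEMF1 and by -4.45 in the double line. AT4G07820 had -8.91 and -6.96 in LFYasEMF1, -8.52 and -8.54 in the double line, 1.95 and 1.37 in ult1-3, and 1.03, 0.98, 1.69 and 0.74 in WT. It missed the limit in LFYasEMF1 through the 15-day array alone, and the double line was at least 272-fold below WT. AT4G07950, 6 genes further on, had -8.50 and -9.71 in LFYasEMF1, -8.87 and -8.12 in the double line, -0.51 and -0.41 in ult1-3, and -1.25, -0.50, -0.70 and -1.10 in WT. Between them, AT4G07825 differed from WT by -1.53 in LFYasEMF1, where 1 of the 2 arrays had no usable value, and by -4.11 in the double line.

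The genes at background in LFYasEMF1 alone include another adjacent pair and a small group on chromosome 1. AT5G28919 had -9.15 and -9.70 in LFYasEMF1, -0.55 and -1.51 in the double line, 0.31 and 0.61 in ult1-3, and 0.61, 0.11, 0.57 and 0.31 in WT. AT5G28920 had -9.21 and -9.78 in LFYasEMF1, -2.56 and -2.62 in the double line, -0.91 and -1.29 in ult1-3, and -2.23, -0.98, -1.48 and -1.88 in WT. LFYasEMF1 was at least 206-fold below WT for AT5G28919 and at least 50.1-fold below for AT5G28920, and both double-line arrays were under the WT range for both genes. The double line differed from WT by -1.43 for AT5G28919 and by -0.94 for AT5G28920.

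On chromosome 1, AT1G72840 and AT1G72850 are adjacent, and AT1G72910 follows 6 genes after AT1G72850. AT1G72840 had -9.24 and -9.81 in LFYasEMF1, -3.07 and -3.19 in the double line, -3.08 and -3.0 in ult1-3, and -2.95, -2.94, -2.84 and -2.29 in WT. AT1G72850 had -7.63 and -8.91 in LFYasEMF1, -4.53 and -4.59 in the double line, -4.23 and -4.68 in ult1-3, and -4.01, -4.41, -4.46 and -4.71 in WT. LFYasEMF1 lay apart from all other arrays in both. AT1G72910 differed between slides in WT, at -1.29 and -0.41 for replicate 1 and -3.15 and -2.94 for replicate 2, and stood at -7.58 and -7.76 in LFYasEMF1. In between, AT1G72870 differed from WT by -2.81 in LFYasEMF1 and by -0.91 in the double line, and AT1G72880 by -2.25 and 0.34.

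None of the other chromosome 1 genes stood beside another of the selected genes. AT1G80970 had -9.23 and -9.81 in LFYasEMF1, -1.95 and -1.85 in the double line, -1.81 and -2.04 in ult1-3, and -2.81, -2.19, -2.17 and -2.16 in WT, and a second probe followed it. The gene before it, AT1G80960, differed from WT by -4.99 in LFYasEMF1 and by 0.31 in the double line. AT1G02020 had -9.24 and -9.82 in LFYasEMF1, -1.96 and -2.09 in the double line, -2.20 and -2.15 in ult1-3, and -2.04, -2.15, -2.44 and -1.87 in WT. Its second probe differed from WT by -0.98 in LFYasEMF1 and by -0.80 in the double line, so this loss too rests on 1 of 2 probes. In LFYasEMF1, AT1G12775 differed from WT by -5.95, AT1G08165 by -3.51 and, on chromosome 5, AT5G37440 by -6.32.

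Genes beside the 37 were mostly at WT level. Within 5 genes on either side there were 184 other genes above the WT limit, with a median difference from WT of -0.11 in LFYasEMF1 and -0.07 in the double line. Of these, 4.89% were more than 2 units below WT in LFYasEMF1 and 3.80% in the double line, against 0.74% and 0.78% of all loci above the WT limit. Among the 38 directly adjacent genes the shares were 10.5% in LFYasEMF1 and 13.2% in the double line. Of the 37 genes, 10 had another of them directly beside them, in 5 pairs.

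In the comparison of ult1-3 with WT, the choice used the WT arrays but not the ult1-3 arrays. Since it required high WT values, it can favour genes that look lower in ult1-3. By limma on all 10 arrays, 1 of the 37 genes was lower in ult1-3 and none was higher, against 3 lower (0.0133%) and 11 higher (0.0489%) of the 22473 loci tested. At an unadjusted p under 0.05, 2 of the 37 were lower and 2 higher, against 2.33% and 1.95% of all loci tested. AT5G01080 had -8.99 and -9.46 in ult1-3 and -4.21, -3.08, -4.28 and -2.99 in WT, with -9.34 and -9.85 in LFYasEMF1 and -9.10 and -9.46 in the double line. It fell by 5.58 on the log2 scale in ult1-3 (standard error, SE, 0.44, limma adjusted p = 0.00455 over all loci tested). Its probe was well above background on neither ult1-3 array, where the lowest such signals were -6.73 and -7.16. The size and SE of this fall therefore rest on values at background, and the true size was not measured. The difference was -5.72 without the 7-day ult1-3 array (limma adjusted p = 0.0519) and -5.45 without the 15-day one (limma adjusted p = 0.0868), where the array left is assumed to vary like the other groups. With the 8 group means it was -5.58 (limma adjusted p = 0.143). It is the 1 gene of the 37 at background in every line that carries ult1-3 or the transgene. The other 2 of its 3 probes did not follow: they differed from WT by -0.37 and 0.93 in ult1-3, but were dim in WT, at means of -7.22 and -9.71.

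The other 36 genes had ult1-3 means that differed from WT by -0.92 to 1.44, with a median of -0.08 against -0.02 over all loci tested. LBD26 had the highest difference, 1.44 (SE 0.29), and AT4G01920 was 0.92 higher (SE 0.26), but their limma adjusted p-values were 0.472 and 0.933. AT5G45220 differed by -0.92 (SE 0.37, limma adjusted p = 0.933), with both ult1-3 arrays, at -5.26 and -5.41, below the WT arrays. All 36 stood above -7.5 on both ult1-3 arrays, and 35 of the 37 were well above background on both.

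**Figure D5:**
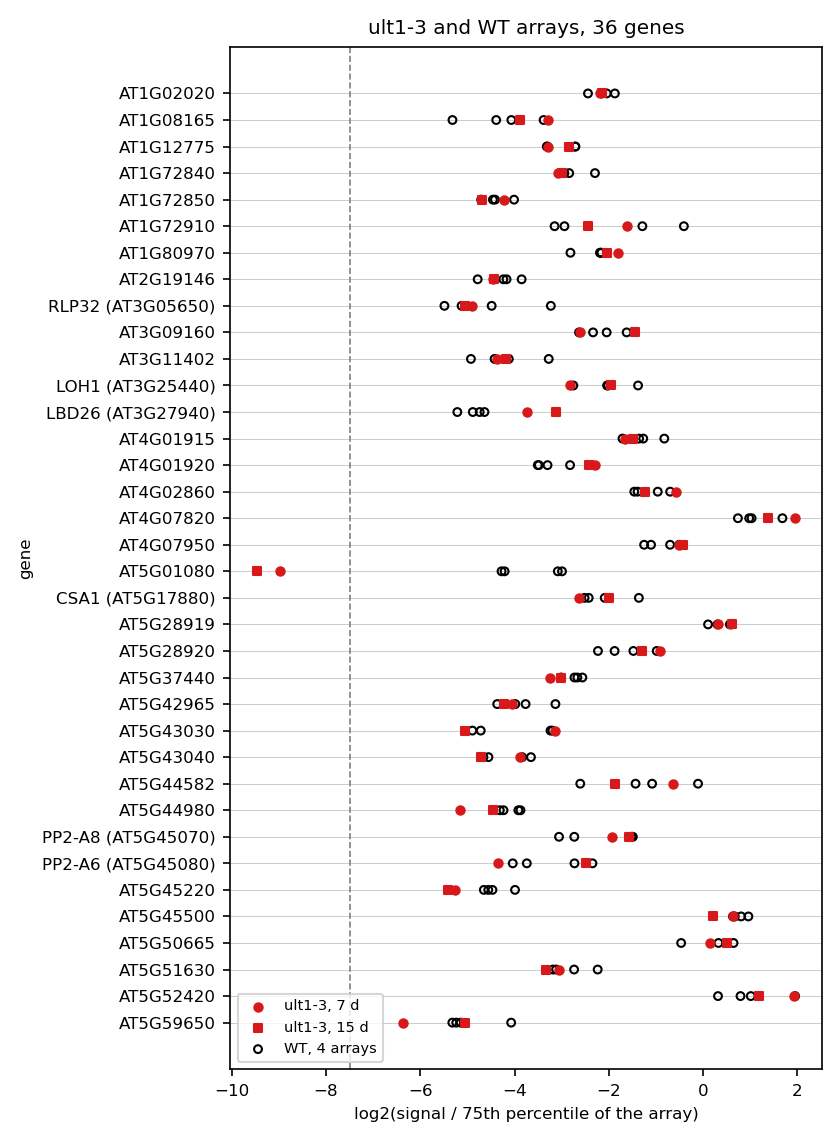
Levels of 36 of the 37 genes on the 2 ult1-3 arrays (red) and the 4 WT arrays (open black circles), as log2 of signal over the 75th percentile of the array; the dashed line marks -7.5. AT5G01080 is the 1 gene whose red points lie left of the line, at -8.99 and -9.46, and all other genes lie to its right on every array.

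Because slides 2 and 3 held the double line, ult1-3 and WT side by side, the double line can be set against ult1-3 on the same slide. Of its 19 genes, 18 were more than 2 units below ult1-3 on both slides, AT5G01080 being the exception. All 34 genes of LFYasEMF1 were more than 2 units below both WT arrays of slide 1, the smallest gap being 2.21. These gaps follow from the same arrays that chose the genes and carry no test.

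Age changed none of the 37 genes in WT by limma on the 4 WT arrays, where 0% of the 22473 loci were called lower and 0% higher at 15 days than at 7 days. At an unadjusted p under 0.05 there were 808 loci, 2 of them among the 37. AT5G43030 differed by -1.59 at 15 days (SE 0.45) and PP2-A6 by 1.35 (SE 0.47), both with a limma adjusted p of 1.00. Over all 10 arrays with genotype as a term, AT5G43030 fell by 1.25 at 15 days (SE 0.25, limma adjusted p = 0.0272). It was the 1 gene of the 37 called with age in that fit, which called 1851 loci in all.

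The wider families were followed through lists of known genes. Of 40 NLR genes, 28 had a probe with a locus and 26 could be tested. By limma, 2 were lower in LFYasEMF1, where 0.739% of all loci were lower and 0.94% higher, and 3 were lower in the double line, where 0.472% were lower and 0.325% higher. At an unadjusted p under 0.05, 5 of the 26 were lower and 0 higher in LFYasEMF1, against 5.47% and 6.42% of all loci. In the double line 13 were lower and 0 higher, against 8.88% and 6.94% of all loci. The choice had fixed the direction of 1 of these genes in each line, in the double line that of CSA1. The others were DAR4 in the double line (log2 difference -6.07, SE 0.54, limma adjusted p = 0.0019) and TAO1 (AT5G44510) in both lines. TAO1 lies in the chromosome 5 stretch from AT5G42965 to AT5G45540, which does not hold CSA1 or DAR4. TAO1 had -5.34 and -5.24 in LFYasEMF1, -6.14 and -5.97 in the double line, and -3.58, -3.66, -3.43 and -2.32 in WT. It fell by 2.05 in LFYasEMF1 (SE 0.34, limma adjusted p = 0.0299, or 0.0569 once slide was added as a term) and fell by 2.81 in the double line (SE 0.34, limma adjusted p = 0.0109). The median of the list was -0.26 in LFYasEMF1, -0.96 in the double line and -0.29 in ult1-3, against 0.00, 0.00 and -0.02 over all loci tested. No NLR gene was called in ult1-3, with 3 lower and 0 higher at an unadjusted p under 0.05. These 3 were also among the 13 lower in the double line. VICTR differed from WT by -1.25 in ult1-3 and by -1.22 in the double line. For VICTL the differences were -0.81 and -1.17, and for RFL1 they were -1.01 and -1.47.

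Of 30 PP2 genes, 25 had a probe with a locus and 23 could be tested. The 3 that were lower by limma in each line were PP2-A6, PP2-A7 and PP2-A8, which stand side by side, and none was higher; PP2-A6 and PP2-A8 had been chosen for this. The fitted fall of PP2-A7 was 3.16 in LFYasEMF1 (SE 0.34, limma adjusted p = 0.0033) and 2.72 in the double line (SE 0.34, limma adjusted p = 0.0116). Its probe was well above background on all 4 WT arrays and on no array of these lines. Those sizes and SEs therefore rest on values at background, and the true size was not measured. At an unadjusted p under 0.05, 0 were higher in LFYasEMF1 and 1 in the double line. The median of the list was 0.35 in LFYasEMF1, -0.33 in the double line and -0.16 in ult1-3, and none was called in ult1-3, with 0 at an unadjusted p under 0.05 in either direction. PP2-A1, the phloem lectin gene among the phloem markers, differed from WT by -0.02 in LFYasEMF1 and by -0.51 in the double line.

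Values near the limits show how the selection was drawn. Just inside the WT limit stood RLP32, AT5G59650 and AT1G08165, with lowest WT arrays of -5.49, -5.32 and -5.32. Just outside it stood CYP712A2 (AT5G06905), AT5G45095 and AT5G52940, at -5.51, -5.58 and -5.6. Just inside the limit of the lines stood AT3G11402, AT1G08165 and AT1G72910, whose higher array was at -7.51, -7.53 and -7.58, and just outside it ACS4, ABCE1 and AT5G18360, at -7.45, -7.43 and -7.34. With limits of -6 and -7 the selection held 54 genes, with -5 and -8 it held 29, and by the software's flag it held 191. Of the other genes, AT2G19146 and AT3G09160 differed from WT by -4.94 and -7.38 in LFYasEMF1 and by -2.72 and -7.0 in the double line.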

How the data were processed

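RNA of 10 whole-seedling samples was hybridised to 1-colour arrays. The authors extracted signals with Agilent Feature Extraction 10.7.1.1, by the submitters' processing notes. The deposited processed signal of a spot is an intensity, background-subtracted within its array, per the file headers. An intensity is also what the authors' value table holds, on a scale they do not state, and it served as an alternative. Here log2 levels were taken relative to the 75th percentile of each array, control spots and outlier flags were left out, and the probe with the highest mean over 10 arrays stood for a locus. Names and gene order came from a RefSeq table of TAIR10.1; no coordinates were used, and 9245 of 43603 probes had no locus. Of the list symbols, 4 belong to 2 loci and were settled by full name. Tests used limma 3.58.1 (R 4.3.3) on loci well above background on at least 1 array, with genotype and age as terms, Benjamini-Hochberg adjustment and a threshold of 0.05. The p-values reflect the spread among these arrays alone, and that spread may be technical; the number of arrays limits precision. Given array by array were the 10 genes brightest in WT, adjacent ones, those called in ult1-3, those with a symbol, and those differing most between lines; protein identity was not used here. One of the 37 genes enters the counts only; its own values are not reported here. Genes and lists were chosen with earlier results of these data known.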

Additional observations from a re-analysis of the deposited data

How the results depend on the processing

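Quantile normalization, the authors' value table and the mean of a locus's probes each gave 37 genes again, 36, 36 and 34 of them shared. Normexp on median signals with an offset of 50, where mean signals were not used, lifted the floor above -7.5 and left 0 genes by construction, in both lines, in LFYasEMF1 only and in the double line only, and 0 members lower in ult1-3. Looser limits gave 6 genes for the double line only. The software's flag gave 191 genes, 44 in both lines, 47 in LFYasEMF1 only and 100 in the double line only, with all 37 among them. Leaving out 1 array gave 37 to 59 genes, 16 to 18 in both lines, 16 to 29 in LFYasEMF1 only and 2 to 25 in the double line only. The repeats without a LFYasEMF1 or double-line array were chosen after seeing the data; without the 15-day array of the double line, 59 genes met the selection and 25 in that line only, without its 7-day array 7 did in that line only, and without the 7-day LFYasEMF1 array 29 did in LFYasEMF1 only. AT5G01080 was no longer called in ult1-3 with the 8 group means (0 members lower, adjusted p 0.143), with normexp (adjusted p 0.956), or without either ult1-3 array, and the filter on 5 arrays removes it (0 members lower); over leave-outs 0 to 1 members were lower and 0 to 0 higher. With the age term of all 10 arrays 1 member changed, among 1851 loci called in all. The replicate block in WT called 0 members, as without it, though 235 loci against 0 over all; deviations of same-numbered WT arrays correlated at r = 0.36 over 22389 genes, with 2 numbers; both replicate 1 arrays lay on slide 1, and the replicate 2 arrays on slides 2 and 3. With slide as a term, 1 NLR gene was lower in LFYasEMF1. Of 131 repeated results, 24 lost their call or moved by over 1.5 times, all given above; where no cause is named, the cause was not tested.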

Other observations

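Probes without a locus stand outside the gene counts. Of 9245 such probes, 2879 were above -5.5 on all 4 WT arrays, and 28 of these (0.973%) met the selection, against 0.203% of loci above the WT limit: 16 in both lines, 11 in LFYasEMF1 only and 1 in the double line only. None of the 28 lay below -7.5 on both ult1-3 arrays. They are not counted among the 37 genes, and some may measure the same transcripts.

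With limits of -6 and -7, 17 loci joined the 37. On chromosome 5 these were 9, among them WOX2 (AT5G59340), a homeobox gene of the early embryo, which differed from WT by -3.77 in LFYasEMF1 and by -4.69 in the double line, and FRO5 (AT5G23990), of the ferric reductase family, which differed by -3.38 and -2.49. WRKY49 (AT5G43290), of a plant transcription factor family, differed by 0.20 in LFYasEMF1 and by -2.21 in the double line. On chromosome 3, AT3G11370 differed from WT by -4.80 in LFYasEMF1 and by -4.38 in the double line, and CID9 (AT3G14450) by -3.64 in LFYasEMF1 and by 0.35 in the double line.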
